A study of Rattus norvegicus with 15 samples.

Results

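MicroRNA (miRNA) levels in rat sciatic nerve on day 4 after injury were set against those on day 1. The comparison used 6 of the 15 arrays of the series, 3 for each day, and took in every miRNA that the scanner software detected on all 3 arrays of either day, 231 of the 350 on the array. The same 231 made up the tested set of the whole series. All samples came from adult male rats, and no strain, genotype or drug is given. The labels do not settle what the injury was: one text speaks of resection and 0.5 cm of proximal nerve, another of a crush from which some 0.5 mm of damaged nerve was taken, and sample names mention proximal stumps as well as the injury site. Uninjured nerve (day 0) and nerve on days 7 and 14, also 3 arrays each, entered the fit and are quoted only for their levels. From each mirVana extract, 0.1 µg of RNA went into a Cy3 labelling. No label states that the arrays of a group came from separate animals, so a p-value reflects only how far these samples vary, which may be technical.

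A miRNA is a short RNA that pairs with messenger RNAs, mainly through its seed, bases 2 to 8 from its 5′ end, and lowers their translation or stability. After a peripheral nerve is injured, Schwann cells leave their myelinating state and divide, blood-borne neutrophils arrive early and macrophages later, and fibroblasts and vessels rebuild the tissue. In such whole-tissue RNA, fewer cells of a type and less RNA per cell cannot be told apart.

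The mature sequences below are of the miRNAs on which the results turn, with the seed in capitals. They were matched by name to RefSeq (GRCr8), in which 165 of the 231 had an entry. The first set are products of one X-chromosome cluster, all of which rose, followed by relatives elsewhere that share a seed with a member of it.
miR-322: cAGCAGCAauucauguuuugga
miR-503: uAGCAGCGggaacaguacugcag
miR-351: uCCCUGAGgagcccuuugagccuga
miR-542-3p: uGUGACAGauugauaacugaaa
miR-450a: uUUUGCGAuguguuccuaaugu
miR-15b: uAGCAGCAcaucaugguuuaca
miR-16: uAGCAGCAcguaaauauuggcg
miR-125b-5p: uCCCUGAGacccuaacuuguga

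The second set holds other leading rises, among them a pair with one seed (miR-221 and miR-222) and the miR-34 family, in which all 3 members share a seed and miR-34b and miR-34c passed the test.
miR-21: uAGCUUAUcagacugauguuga
miR-31: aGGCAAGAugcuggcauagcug
miR-221: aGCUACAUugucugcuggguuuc
miR-222: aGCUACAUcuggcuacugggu
miR-34b: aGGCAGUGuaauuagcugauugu
miR-34c: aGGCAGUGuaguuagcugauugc
miR-34a: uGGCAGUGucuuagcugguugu

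The third set fell: members of the miR-30 family with their common seed, and miR-138.
miR-30a: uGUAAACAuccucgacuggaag
miR-30c: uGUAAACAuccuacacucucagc
miR-30e: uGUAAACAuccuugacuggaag
miR-138: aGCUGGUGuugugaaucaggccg

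Levels are given as log2 of the background-subtracted signal divided by the array's 75th percentile over the 164 miRNAs detected on all 15 arrays, so that 0 is that percentile. Changes are day 4 minus day 1 on this log2 scale with the standard error of the fit (n = 3 arrays each). Day 4 and day 1 were each hybridised on a slide of their own and scanned separately, so slide and day cannot be told apart. The bright corner control, a spike on every array, read 868 to 1056 on the day 4 arrays and 86.1 to 113 on the day 1 arrays, and its part in the results was not tested. The day 4 arrays detected 229 to 235 miRNAs and the day 1 arrays 203 to 228, and no spot was saturated. Across miRNAs, which are not independent replicates, arrays correlated at 0.995 to 0.998 within day 4, at 0.993 to 0.994 within day 1 and at 0.955 to 0.969 between the days.

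Of the 231 miRNAs, 60 were higher on day 4 (26% of those tested) and 53 lower (22.9%) in limma's moderated test at an adjusted p under 0.05, which is 48.9% in all. The median change over all 231 was -0.06, with quartiles of -0.33 and 0.40. The changes called were mostly modest: their median was 0.69 among the rises and -0.51 among the falls, and 15 rises and 9 falls exceeded 2-fold. All 3 arrays of one day lay beyond all 3 of the other for 140 miRNAs (60.6%), 66 higher (28.6%) and 74 lower (32%) on day 4. The split depended on the scaling. Dividing by the 75th percentile over all miRNAs on the array gave 83 higher and 45 lower and moved the median by more than 0.1, to 0.07. Keeping outlier spots gave 48 higher and 24 lower, and a background correction that adds an offset gave 22 and 40. Calls of dim miRNAs described below were lost in that correction, among them the rises of miR-132, miR-130b, miR-455, miR-196c, miR-7a and miR-377 and the falls of miR-33, miR-338*, miR-30c-2*, miR-874, miR-598-3p and miR-760-3p. Among the 200 miRNAs detected on all 6 arrays, 46 were higher and 49 lower. Most miRNAs were read by more than 1 probe. No probe moved against the call for 57 of 58 such rises and for 53 of 53 such falls. Of the 4 probes each of miR-338* and miR-760-3p, however, only 3 fell and the remaining probe did not change.

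**Figure D1:**
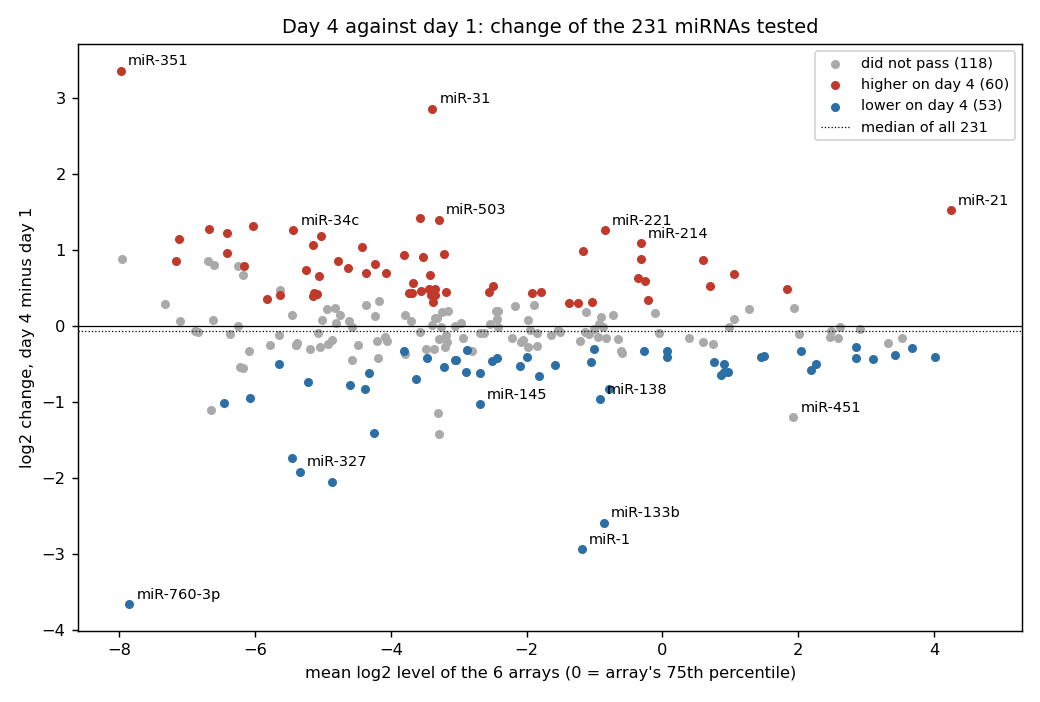
Each point is 1 of the 231 miRNAs, with its mean log2 level over the 6 arrays on the horizontal axis and its fitted log2 change, day 4 minus day 1, on the vertical axis. Red points passed as higher (60), blue points as lower (53), grey points did not pass (118), and the dotted line is the median change of -0.06; miR-351 and miR-760-3p were each undetected on 1 of the 2 days, so their fitted changes are not measured folds.

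miR-21, a miRNA raised in many injured tissues that represses Pdcd4, was the brightest miRNA on day 4. Its levels were 4.80, 5.14 and 5.08 on the day 4 arrays, against 3.54, 3.34 and 3.59 on the day 1 arrays. The days did not overlap, and the rise was 1.52 ± 0.12, or 2.87-fold (limma adjusted p = 1.75e-06). Its share of the summed signal was 12.1%, 15.5% and 14.6% on day 4, against 5.24%, 3.80% and 5.02% on day 1, although probes differ in binding and signal does not rank abundance between miRNAs. Its opposite arm miR-21* was 0.78 ± 0.58 higher and did not pass (adjusted p = 0.28), with day 4 arrays at -5.89, -5.75 and -5.94 and day 1 arrays at -6.57, -6.83 and -6.53. Those arrays did not overlap, and the difference passed in 5 of the other settings, among them a fit of the 6 arrays alone (adjusted p = 0.00064).

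miR-31, a miRNA studied for its part in cell migration, had levels of -2.17, -1.80 and -1.92 on day 4, against -4.97, -4.97 and -4.52 on day 1. Every day 4 array was more than 4-fold above every day 1 array, and the fitted change was 2.86 ± 0.48, or 7.25-fold (adjusted p = 0.000523). In uninjured nerve no array detected it. Its mean level after day 4 was -2.21 on day 7 and -3.09 on day 14.

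miR-221 and miR-222, encoded side by side on the X chromosome, repress the cell-cycle inhibitor p27 (Cdkn1b). miR-221 read -0.27, -0.19 and -0.19 on day 4, against -1.52, -1.45 and -1.47 on day 1. The spread within each day was small beside the difference of 1.26 ± 0.10 (2.40-fold, adjusted p = 1.75e-06). miR-222 read -2.80, -2.74 and -2.72 on day 4, against -3.78, -3.67 and -3.63 on day 1. It rose by 0.94 ± 0.19 (adjusted p = 0.00161), a call that missed the threshold when the software's total gene signal replaced the averaged signal (0.94, adjusted p = 0.051).

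The miR-34 family is transcribed under p53 and restrains division. Its members miR-34b and miR-34c come from neighbouring hairpins on chromosome 8 and miR-34a from chromosome 5. miR-34c read -4.88, -4.72 and -4.82 on day 4, against -6.07, -6.12 and -6.02 on day 1, where 1 of 3 arrays detected it, and rose by 1.26 ± 0.15 (adjusted p = 4.43e-05). miR-34b, detected on 2 of 3 day 1 arrays, rose by 1.18 ± 0.15 (adjusted p = 8.77e-05). After the background correction with an offset neither passed (miR-34c 0.18, adjusted p = 0.17, and miR-34b 0.23, adjusted p = 0.10). The levels of miR-34a were 0.89, 1.02 and 0.98 on day 4, against 0.83, 1.16 and 0.95 on day 1. The days overlapped for it, with a difference of -0.02 and a 95% interval of -0.30 to 0.26.

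Among other inducible miRNAs, miR-146b and miR-132 rose. Of the inflammation list, 2 of 3 tested members rose and none fell, beside 26% higher and 22.9% lower calls over all miRNAs. miR-147 of this list was detected on neither day. The rises were of miR-21 and of miR-146b, which is induced through NF-κB. miR-146b read 0.99, 1.06 and 1.05 on day 4, against 0.01, 0.21 and 0.27 on day 1, a rise of 0.87 ± 0.13 (adjusted p = 0.00023). miR-146a, which has the same seed, differed by 0.02, with a 95% interval of -0.18 to 0.22. miR-132, induced through CREB in neurons, rose by 0.82 ± 0.11 (adjusted p = 8.77e-05), whereas its cluster mate miR-212 differed by 0.01 ± 0.28. miR-210, the classic target of hypoxia-inducible factor, was at -0.22 ± 0.15 and did not pass (adjusted p = 0.25). It passed as lower after quantile normalisation and in the deposited table (adjusted p = 0.03 and 0.018). miR-29b, which represses collagens, rose by 0.68 ± 0.11 (adjusted p = 0.000516), while its relatives miR-29a and miR-29c were at 0.23 and 0.17 and did not pass; miR-29a passed under 4 other scalings or sources and with the replicate block, and miR-29c under 2 scalings.

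**Figure D2:**
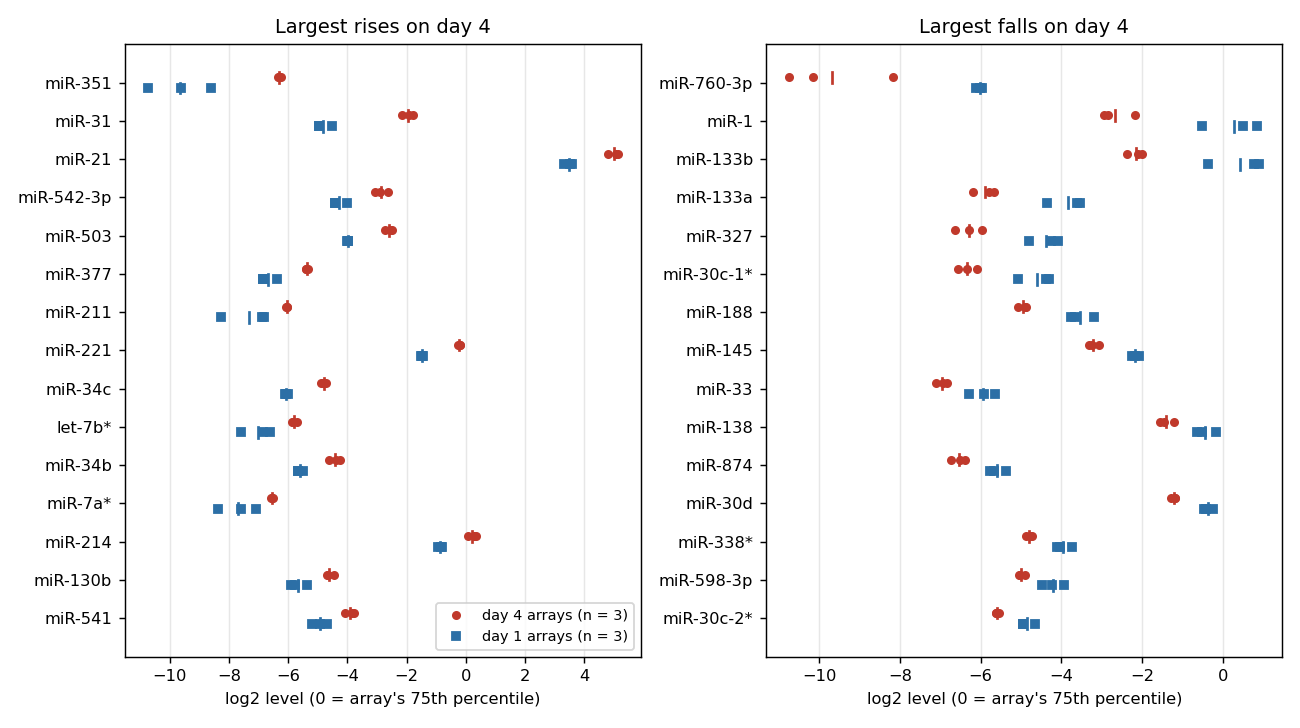
Log2 levels (0 is the array's 75th percentile) on each day 4 array (red circles) and day 1 array (blue squares), n = 3 each, for the 15 rises and 15 falls of greatest size among the calls without overlap; vertical bars are means. Of the rises, miR-351, miR-377, miR-211 and let-7b* were detected on no day 1 array, and miR-760-3p was detected on no day 4 array; every day 4 value lies beyond the day 1 values.

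The cluster of miR-322 and miR-503 on the X chromosome yields miRNAs that repress cyclins and other cell-cycle genes. All 7 of its products on the array passed the test as higher on day 4 and none as lower, with a median change of 0.98, beside a median of -0.06 and 26% higher calls over all 231 miRNAs. miR-503 read -2.73, -2.56 and -2.50 on day 4, against -4.03, -3.97 and -3.99 on day 1, and rose by 1.40 ± 0.13 (2.63-fold, adjusted p = 1.07e-05). miR-542-3p read -3.06, -2.91 and -2.62 on day 4, against -4.40, -4.02 and -4.42 on day 1, and rose by 1.42 ± 0.14 (adjusted p = 1.07e-05). For neither did an array of one day reach those of the other. miR-322 read -0.79, -0.66 and -0.60 on day 4, against -1.75, -1.54 and -1.70 on day 1, and rose by 0.98 ± 0.11 (adjusted p = 2.64e-05).

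The remaining products of the cluster rose less or were dim. miR-450a rose by 0.69 ± 0.12, miR-322* by 0.49 ± 0.10 and miR-542-5p by 0.43 ± 0.12, so both arms of the miR-322 and miR-542 hairpins moved up. miR-351 was detected on all 3 day 4 arrays, at -6.34, -6.32 and -6.23, and on no day 1 array. It was at least 2.40-fold higher on day 4, a bound that compares its day 4 level with the lowest signal of any detected miRNA on each day 1 array. With the total gene signal the bound was 1.61-fold. The limma test of its fitted change passed (adjusted p = 0.000296), but that test used the undetected day 1 values and does not test the bound. The median of the 7 is the same with miR-351 at its bound. No member was called lower in any setting run, and all 7 passed with each of the 6 arrays left out; 6 passed in the deposited value table and with outlier spots kept, and 3 after a background correction that adds an offset to dim signals.

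Levels over the 5 groups place the rise in time. The mean of miR-503 was -3.71 on day 0, -3.99 on day 1, -2.60 on day 4, -2.89 on day 7 and -3.17 on day 14. miR-322 averaged -0.78 on day 0, -1.66 on day 1, -0.68 on day 4, -0.44 on day 7 and -0.51 on day 14. The day 1 level was the lowest of the 5 for both. The day 4 mean of miR-503 was above that of uninjured nerve by more than either SD, and that of miR-322 differed from it by less than either SD.

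**Figure D3:**
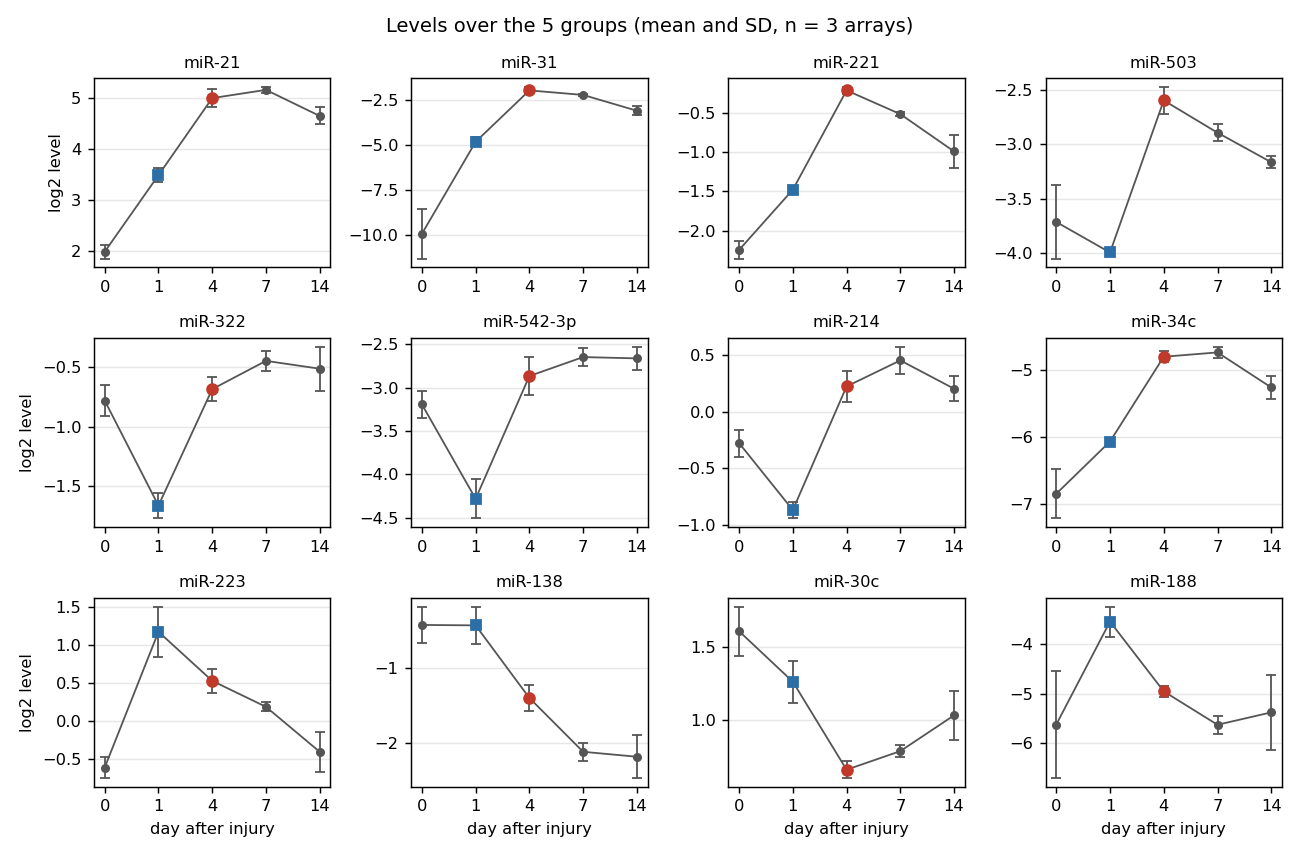
Mean log2 level with SD (n = 3 arrays) of 12 miRNAs on days 0, 1, 4, 7 and 14, with day 4 as a red circle and day 1 as a blue square; the days are evenly spaced and each panel has its own vertical scale. miR-322, miR-503, miR-542-3p and miR-214 were lowest on day 1, miR-223 and miR-188 were highest on day 1, and miR-31 was not detected on day 0.

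Seeds of the cluster also occur in miRNAs encoded elsewhere. The seed of miR-322 also belongs to miR-15b, miR-16, miR-195 and miR-497. miR-15b rose by 0.52 ± 0.10 (adjusted p = 0.00131), whereas miR-16, miR-195 and miR-497 were at -0.05, -0.16 and -0.09 and did not pass; after quantile normalisation miR-16 was 0.25 higher and passed (adjusted p = 0.0106), as it did in the deposited table. miR-351 and miR-125b-5p have one seed, and miR-125b-5p fell by 0.41 ± 0.15 (adjusted p = 0.034), with levels of 3.92, 3.79 and 3.71 on day 4 and of 4.04, 4.44 and 4.16 on day 1. That fall missed the threshold without day 4 replicate 2 or 3 or day 1 replicate 2 or 3 (adjusted p = 0.057 to 0.13). In all, 26 seeds were held by more than 1 tested miRNA with a RefSeq entry, 75 miRNAs together. Over all 231 miRNAs, 48.9% passed in one direction or the other. For 6 seeds, each held by only 2 of the miRNAs, every member passed in one direction. Probes of close relatives can take up each other's RNA, so members of a seed are not independent. For 2 seeds members passed in both directions, and for 4 seeds none passed. The miR-181 family is the other family with calls both ways: miR-181a and miR-181c fell by 0.48 and 0.54, and miR-181b rose by 0.31 ± 0.12 (adjusted p = 0.047), a rise that was lost with any one of the arrays left out other than day 1 replicate 2.

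The cluster that runs from miR-17-5p to miR-92a and its paralogs are transcribed under Myc and E2F and favour division. Of 11 members tested, 7 rose and none fell, with a median of 0.31, beside 26% higher calls over all 231 miRNAs. miR-18a read -3.38, -3.26 and -3.38 on day 4, against -4.53, -4.25 and -4.02 on day 1, a rise of 0.93 ± 0.16 (adjusted p = 0.000607). miR-19a read -3.08, -3.04 and -3.08 on day 4, against -4.40, -3.89 and -3.64 on day 1, a rise of 0.91 ± 0.15 (adjusted p = 0.000481). For both the day 1 arrays were widely spread, with replicate 1 the lowest. miR-19b rose by 0.63 and miR-20a by 0.59, while miR-92a (0.14), miR-25 (0.19), miR-363 (-0.20) and miR-20b-5p (-0.37) did not pass. Without day 1 replicate 1, 4 members rose and 1 fell. The rise of miR-18a missed the threshold with the total gene signal (0.93, adjusted p = 0.16) and in the deposited table.

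Markers of smooth muscle and fibroblasts split by their genes. The pair miR-199a and miR-214, expressed from one long transcript in mesenchymal cells, rose. miR-214 read 0.07, 0.27 and 0.33 on day 4, against -0.95, -0.81 and -0.84 on day 1, a rise of 1.09 ± 0.10 (2.13-fold, adjusted p = 8.57e-06). miR-199a-5p rose by 0.88 ± 0.11 (adjusted p = 7.25e-05) and miR-199a-3p by 0.49 ± 0.10 (adjusted p = 0.00131). miR-145 and miR-143, markers of contractile smooth muscle from another cluster, fell. miR-145 read -3.08, -3.31 and -3.23 on day 4, against -2.26, -2.07 and -2.18 on day 1, a fall of 1.04 ± 0.11 (adjusted p = 2.64e-05), so no array of one day reached the other. miR-143 fell by 0.41 ± 0.10 (adjusted p = 0.00561). Of this list 3 of 5 rose and 2 fell, beside 26% higher and 22.9% lower calls over all miRNAs. Its median of 0.49 hides both directions.

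The miR-30 family, which is broadly expressed, fell: 5 of 5 tested members passed as lower and none as higher, with a median of -0.60 beside 22.9% lower calls over all miRNAs. miR-30c read 0.72, 0.63 and 0.62 on day 4, against 1.16, 1.42 and 1.20 on day 1, a fall of 0.60 ± 0.11 (adjusted p = 0.00081). miR-30d fell by 0.84 ± 0.13 (adjusted p = 0.000294) and miR-30a by 0.60 ± 0.13 (adjusted p = 0.00285). miR-30b-5p fell by 0.34 and miR-30e by 0.31, and for none of the 5 did the arrays of the 2 days overlap. Without day 4 replicate 2 or day 1 replicate 2, with outlier spots kept, or scaled by the 75th percentile over miRNAs detected on all 6 arrays, 3 members passed. Probes of such close relatives can take up each other's RNA, so the 5 values are not independent. Among the opposite arms, miR-30c-1* fell by 1.74 ± 0.30 (adjusted p = 0.000587) and miR-30c-2* by 0.75 ± 0.13 (adjusted p = 0.000714), the second not passing with the total gene signal (-0.84, adjusted p = 0.30), and miR-30a* fell by 0.46, less than miR-30a.

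Other families moved less. let-7, which is high in differentiated cells, had 3 of 8 members lower and none higher, with a median of -0.19, beside 22.9% lower calls over all miRNAs; the direction depends on the scaling, since quantile normalisation gave 2 higher and 2 lower, and 1 member passed as lower without day 4 replicate 2 or with no scaling, and none with outlier spots kept. miR-26a and miR-26b fell by 0.43 and 0.40, and miR-99a and miR-100 by 0.51 and 0.42, of which miR-26b and miR-99a missed the threshold with quantile normalisation. The call of miR-100 was lost without day 4 replicate 2 or 3 or day 1 replicate 2 (adjusted p = 0.062 to 0.11) and with outlier spots kept. Of the 5 members of the miR-23, miR-24 and miR-27 list only miR-23b passed (-0.28 ± 0.11, adjusted p = 0.047), and it turned to 0.07 when arrays were quantile-normalised and to 0.08 in the deposited table. Neither miR-148b-3p nor miR-152 passed. Of the miR-10 and miR-196 list, miR-196c rose by 0.69 and miR-10b fell by 0.33, and of the miR-130 and miR-301 list miR-130b rose by 1.07 ± 0.18 (adjusted p = 0.000523). miR-455, a cartilage miRNA, rose by 0.73 while miR-140 and miR-140* did not pass. On day 1, miR-130b was detected on 2 of 3 arrays, and miR-455, which was read by 1 probe, on 1 of 3.

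Myelinating glia were represented by 5 tested markers, of which 3 fell and 1 rose, beside 22.9% lower and 26% higher calls over all miRNAs, while miR-219-5p was detected on no array of either day. miR-138, which with miR-338 and miR-219 promotes oligodendrocyte differentiation, read -1.20, -1.55 and -1.46 on day 4, against -0.63, -0.17 and -0.51 on day 1. The fall was 0.96 ± 0.17 (adjusted p = 0.000736), without overlap. On later days its mean was -2.12 (day 7) and -2.18 (day 14), and in uninjured nerve it was -0.43, close to day 1. miR-338* fell by 0.84 ± 0.17 (adjusted p = 0.00177). miR-338 itself read 3.02, 2.83 and 2.78 on day 4, against 3.27, 3.54 and 3.13 on day 1, a fall of 0.44 ± 0.17 at an adjusted p of 0.044, which missed the threshold without day 4 replicate 2 or 3 or day 1 replicate 1 or 2 (adjusted p = 0.07 to 0.16) and under 4 other scalings or sources. miR-204 was at -0.24 and did not pass. miR-211, which shares its seed, was detected on all 3 day 4 arrays and on no day 1 array. It was at least 1.88-fold higher on day 4, or at least 1.44-fold with the total gene signal. The adjusted p of 0.0076 is of its fitted change and not of these bounds. That change did not pass after the background correction with an offset (0.06, adjusted p = 0.69).

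**Figure D4:**
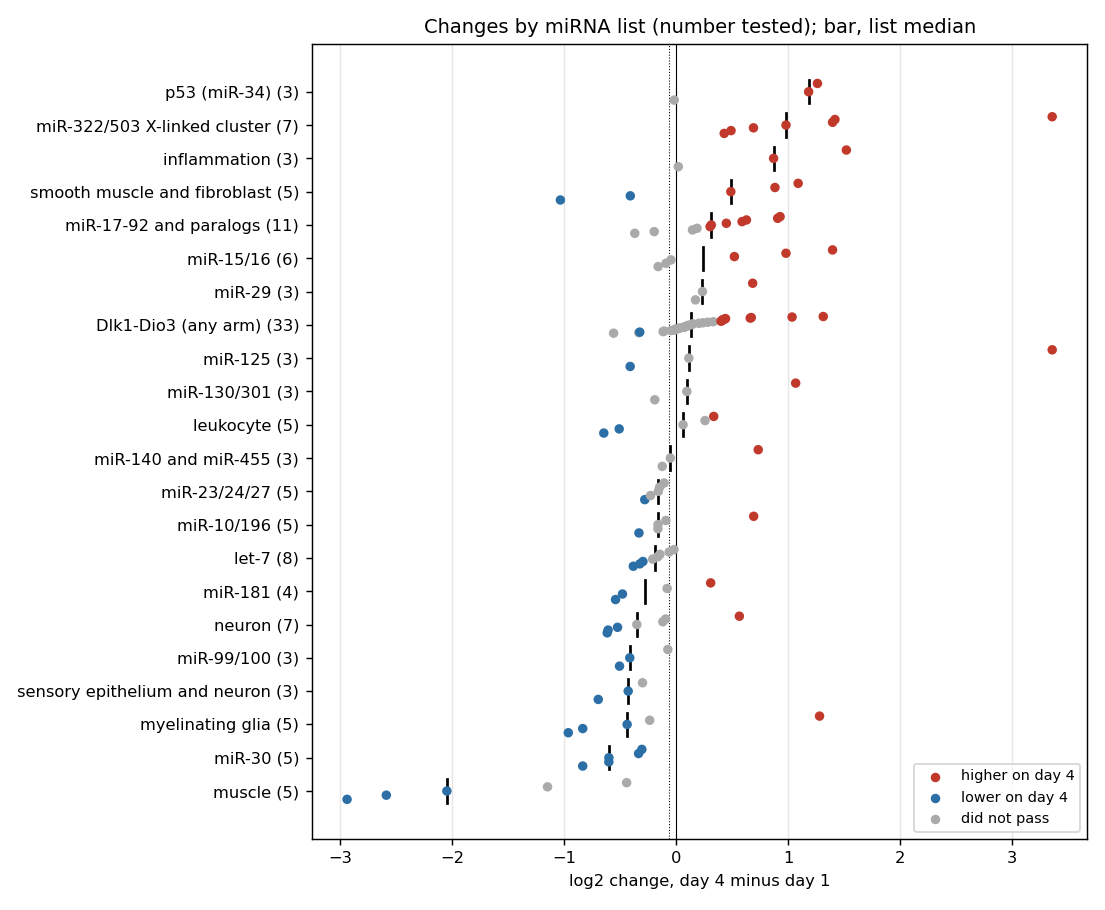
Fitted log2 changes, day 4 minus day 1, of the members of each list with 3 or more tested miRNAs (number tested in brackets), coloured by call, with a bar at the list median and a dotted line at the median of all 231. All members of the X-linked cluster lie to the right of 0 and all members of miR-30 to the left; miR-351, miR-211 and miR-377 were undetected on day 1, so their points are fitted values and not measured folds.

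Of 7 neuronal markers tested, 3 fell and 1 rose, beside 22.9% lower and 26% higher calls over all miRNAs, and miR-129, miR-153 and miR-7b were detected in neither group. miR-9* fell by 0.62 ± 0.13 (adjusted p = 0.00269), miR-9 by 0.52 ± 0.15 (adjusted p = 0.0115) and miR-124 by 0.61 ± 0.16 (adjusted p = 0.00784), whereas miR-7a rose by 0.56 ± 0.09 (adjusted p = 0.000516). With outlier spots kept, 1 of the falls passed. The summed level of the list, relative to the 75th percentile, was 1.31 to 1.48 on day 4 and 1.54 to 2.05 on day 1. Of the sensory cluster on chromosome 4, miR-182 fell by 0.70 ± 0.21 and miR-96 by 0.43 ± 0.16, and miR-183 was at -0.30 and did not pass. Both calls are fragile: miR-182 missed the threshold without day 4 replicate 2 or day 1 replicate 2 (adjusted p = 0.051 for each), and miR-96 with any one of the arrays left out other than day 1 replicate 1. miR-183 passed as lower after quantile normalisation and in the deposited table (adjusted p = 0.00054 and 0.00064). It also passed with no scaling and without day 14 replicate 3 or day 1 replicate 1.

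Leukocyte miRNAs went separate ways. miR-223, which marks neutrophils and other myeloid cells, read 0.46, 0.43 and 0.71 on day 4, against 1.36, 0.80 and 1.39 on day 1. Its fall of 0.65 ± 0.17 (1.57-fold, adjusted p = 0.0073) left all day 4 arrays below day 1, and its mean was -0.61 on day 0, 0.19 on day 7 and -0.40 on day 14. miR-150, a miRNA of mature lymphocytes, fell by 0.51 ± 0.11 (adjusted p = 0.00275). miR-142-3p, which is found in all blood cell lineages, read -0.16, 0.02 and 0.01 on day 4, against -0.46, -0.50 and -0.16 on day 1. Those arrays met at -0.16, the difference was 0.33 ± 0.13 (adjusted p = 0.047), and it missed the threshold without day 4 replicate 2 or 3 or day 1 replicate 1 or 2 (adjusted p = 0.12 to 0.15). The difference also missed it with no scaling, quantile normalisation, the total gene signal and the deposited table. The same held with no filter, the 6 arrays alone, outlier spots kept and the background correction with an offset (adjusted p = 0.054 to 0.22 over these settings). miR-142-5p and miR-342-3p were at 0.06 and 0.26 and did not pass. Red-cell miRNAs were variable: miR-451 read 1.85, 1.38 and 0.74 on day 4, against 1.57, 2.80 and 3.20 on day 1, so the days overlapped and the difference of -1.20 ± 0.59 did not pass (adjusted p = 0.11). Without day 1 replicate 1 it was -1.68 (adjusted p = 0.044). miR-144, from the same transcript, was at -1.42 ± 0.60 (adjusted p = 0.064), and at -2.06 without that array (adjusted p = 0.012). The summed red-cell level was 1.72 to 3.70 on day 4 and 3.04 to 9.53 on day 1, and the part of blood in the other results was not tested.

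Skeletal muscle miRNAs were present in nerve RNA and lower on day 4. miR-1 read -2.18, -2.85 and -2.95 on day 4, against 0.51, -0.51 and 0.85 on day 1, and the fitted fall was 2.94 ± 0.99 (adjusted p = 0.0275). miR-133b fell by 2.59 ± 0.92 (adjusted p = 0.034) and miR-133a by 2.05 ± 0.74 (adjusted p = 0.0382). The arrays of the 2 days did not overlap for any of them, but their spread in the whole series was wide. miR-206 (-1.15) and miR-499 (-0.44) did not pass, and the heart miRNA miR-208 was detected in neither group. The summed muscle level was 0.453 to 0.560 on day 4 and 1.66 to 3.96 on day 1, and its part in the other results was not tested. None of these calls held with the filter on dim miRNAs removed (adjusted p = 0.06 to 0.078), nor with day 4 replicate 2 or 3 or day 1 replicate 1 or 3 left out. Without day 4 replicate 1 that of miR-1 alone remained. miR-499 passed as lower with no scaling and after quantile normalisation (adjusted p = 0.04 and 0.017).

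Markers of other tissues were mostly undetected. Of the epithelial list miR-200a, miR-200b, miR-200c, miR-141 and miR-429 were detected in neither group, and miR-203 and miR-205 were at -0.31 and -0.15 and did not pass. After quantile normalisation miR-203 and miR-205 passed as lower (adjusted p = 0.0086 and 0.041). Of the liver and pancreas list miR-122 and miR-375 were detected in neither, miR-192 (-0.18) did not pass, and miR-194 (-0.51, adjusted p = 0.0313) passed with overlapping arrays and turned to 0.20 with the total gene signal. In endothelium, miR-126* rose by 0.52 ± 0.09 (adjusted p = 0.000736) and miR-126 was at 0.22 (adjusted p = 0.0883). miR-126 passed as higher with the 75th percentile over all miRNAs and over those detected on all 6 arrays (adjusted p = 0.00417 and 0.00239).

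Several of the largest falls were of dim miRNAs with no list. miR-188 read -5.08, -4.90 and -4.88 on day 4, against -3.76, -3.67 and -3.19 on day 1, a fall of 1.41 ± 0.46 (adjusted p = 0.0231). It missed the threshold with the total gene signal (-1.41, adjusted p = 0.39), in the deposited table, and without any one of the day 4 arrays or day 1 replicate 3. miR-327 was detected on 1 of 3 day 4 arrays and fell by 1.92 ± 0.51 (adjusted p = 0.00835). miR-760-3p was detected on no day 4 array and read -6.00, -5.95 and -6.11 on day 1. It was thus at least 9.74-fold lower on day 4, or at least 3.02-fold with the total gene signal. The adjusted p of 0.00308 is of its fitted fall and not of these bounds. miR-33, which lies in an intron of Srebf2 and represses Abca1, fell by 1.01 ± 0.20 (adjusted p = 0.0012). miR-598-3p fell by 0.78 ± 0.16 and miR-874 by 0.95 ± 0.25, and neither these nor miR-33 passed with the total gene signal.

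Detection itself differed between the days. So did the negative control spots, whose mean background-subtracted signal, before scaling, was 0.57 to 1.23 on the day 4 arrays. On the day 1 arrays it was -1.54 to -0.64. The part of this difference in the detection and changes of dim miRNAs was not tested. On all 3 day 4 arrays and no day 1 array, 9 miRNAs were detected, and miR-760-3p showed the opposite pattern. Beside miR-351 and miR-211, the 9 were miR-377 (at least 2.36-fold higher), let-7b* (1.87-fold), miR-1* (1.80-fold) and miR-743a (1.73-fold), which passed, and miR-878, miR-92b and miR-29a*, which did not (adjusted p = 0.0633, 0.362 and 0.359). let-7b* missed the threshold without day 1 replicate 1 (adjusted p = 0.064). miR-1* and miR-1 are arms of one hairpin with fitted changes in opposite directions, and with the total gene signal the bound for miR-1* was 1.19-fold. The rise of miR-1* did not pass in the deposited table (1.14, adjusted p = 0.095). After the background correction with an offset it was 0.07 (adjusted p = 0.65), and neither let-7b* nor miR-743a passed there (adjusted p = 0.65 and 0.83). Names with an asterisk, the older mark of the less abundant arm, were called higher for 10 and lower for 7 of 30, against 50 and 46 of 201 other names.

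The Dlk1-Dio3 locus, an imprinted region whose miRNAs are expressed mainly in brain and in embryonic tissue, had 47 members on the array, of which 33 were tested. Of the 33 tested, 10 rose and 1 fell, with a median of 0.13, and 22 did not pass. The share of rises is near the 26% over all 231 miRNAs, while the share of falls is below the 22.9% over all. The leading rises were miR-377, miR-541 (1.03 ± 0.16, adjusted p = 0.000294), miR-376b-3p (0.67 ± 0.13, adjusted p = 0.00102) and miR-543* (0.66 ± 0.25, adjusted p = 0.0455), and miR-341 fell by 0.33 ± 0.11. The count of rises ranged with the processing, being 17 when scaled by the 75th percentile over all miRNAs, 5 with the total gene signal and 2 after the background correction with an offset. It was 6 without day 1 replicate 1 or day 4 replicate 3, and 5 without day 1 replicate 3. miR-541 did not pass with the total gene signal (1.24, adjusted p = 0.24).

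The 10 miRNAs with the largest share of the summed signal took 49.9% of it on day 4 and 46.9% on day 1. Among them miR-21 rose, miR-125b-5p, let-7a, let-7c, miR-338, miR-26a and miR-23b were called lower, and let-7f, miR-23a and miR-16 did not pass. let-7c read 3.31, 3.16 and 3.22 on day 4, against 3.51, 3.80 and 3.53 on day 1, a fall of 0.38 ± 0.10 (adjusted p = 0.0073) that missed the threshold in the quantile-normalised and deposited values. miR-26a read 2.71, 2.59 and 2.60 on day 4, against 2.92, 3.25 and 3.02 on day 1, a fall of 0.43 ± 0.12 (adjusted p = 0.0113). That call was lost with outlier spots kept (adjusted p = 0.097). let-7a fell by 0.30 ± 0.10 (adjusted p = 0.0231), a call lost without day 4 replicate 2 or day 1 replicate 2 (adjusted p = 0.091 and 0.082).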

How the data were processed

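The deposited array files hold 1-colour spot intensity values, background-subtracted but not scaled between arrays, and per the file headers came from Agilent Feature Extraction 10.7.3.1. A value table on a log2 scale was also deposited by the authors; its columns share one median apart from day 14 replicate 3, its normalization is not given in the sources used here, it lacks miR-17-5p, and it served as an alternative. Control spots and spots flagged as outliers were left out. Signal was averaged per probe over its spots, and per miRNA over its probes, divided by the array's 75th percentile over the 164 miRNAs detected on all 15 arrays, floored at the lowest scaled value of any detected miRNA (log2 of -10.73) and log2-transformed.

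The 231 miRNAs were fitted with limma 3.58.1 in R 4.3.3, as 5 group means over 15 arrays (10 residual and 2.37 prior degrees of freedom), with two-sided tests and Benjamini-Hochberg adjustment over all 231. The step was tested on simulated data. "At least N-fold" sets the detected group against the lowest detected signal, or the miRNA's own where higher, on each array of the other group. The adjusted p of such a miRNA is of its fitted change, not of the bound. Depth here is signal over background, and 3 arrays a group limit the precision.

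Named are the 15 largest rises and falls that passed without overlap, miRNAs detected on all arrays of 1 day and none of the other, the 10 brightest, up to 4 per list by adjusted p and 20 others whatever their result; a few further list members are given with their lists, and some members appear only in counts. Members, lists and rules were chosen with earlier results of these data known. Names are those of the array; older arm names were matched to RefSeq by hand. Figures used Python 3.11.15 and matplotlib 3.10.9. Alternatives changed the scaling, signal, background correction, filter, floor, outlier spots, samples and replicate block. Background correction by normexp was planned on mean signals; the files gave median signals, which were used instead.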

Additional observations from a re-analysis of the deposited data

How the results depend on the processing

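The main result was 60 miRNAs higher and 53 lower on day 4, with a median change of -0.06. Leaving out each of the 6 arrays in turn gave 47 to 69 higher, 36 to 60 lower and medians of -0.129 to 0.0117. The number of rises fell to 22 with normexp on median signals, whose offset compresses dim signals. It took the place of the planned normexp on mean signals, which the files lacked. The number of falls fell to 24 with outlier spots kept (48 higher). Beside these settings (22 higher and 40 lower with normexp), the share of rises among the calls also moved with the 75th percentile over all miRNAs (83 higher, 45 lower), over those detected on all 6 arrays (75 and 45) and without day 14 replicate 3 (59 and 75); with day 1 replicate 1 left out it was 47 against 60 and with day 1 replicate 2 left out 69 against 38. The median was 0.0747 and 0.0314 under these first 2 scalings, 0.0119 after quantile normalisation, -0.00999 with the total gene signal, 0.0035 in the deposited table, 0 with no filter, -0.0937 over miRNAs detected on all 6 arrays, -0.13 without day 14 replicate 3 and 0.0016 with outlier spots kept. Under 5 other scalings or sources 43 rises and 34 falls were kept, under the 6 left-out arrays 44 and 32, and under all 21 settings 18 and 11. A miRNA not tested in a setting counted as not kept, such as miR-17-5p, which the deposited table lacks. Among the 21 settings, 1 tested only the 200 miRNAs detected on all 6 arrays, so at most 46 rises and 49 falls could be kept there. A median floor and leaving out day 0 replicate 1 were added after seeing the data.

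Same-numbered arrays of the days correlated at -0.28, 0.088 and -0.058 in their deviations from the group means, and differently numbered ones at -0.26 to 0.32. With 3 arrays a group such deviations depend on each other, so these values cannot tell whether the numbers pair the arrays. The main fit used no pairing. With the replicate block 64 miRNAs were higher and 56 lower.

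Of 114 named miRNAs, 31 kept their direction and side of the threshold in all settings. The cause of the turned signs below was not tested. Turned miR-16 passed as higher after quantile normalisation and in the deposited table (adjusted p = 0.0106 and 0.00687). Among those that turned, only miR-23b (0.0716 with quantile normalisation, 0.0778 in the deposited table) and miR-194 (0.20 with the total gene signal) had been called. With the 75th percentile over all miRNAs, miR-16 was 0.0914, miR-34a 0.12, miR-140* 0.0139, miR-140 0.0862, miR-99b 0.0636 and miR-181d 0.0573. With that over miRNAs detected on all 6 arrays, miR-16 was 0.0481, miR-34a 0.0776, miR-140 0.0430, miR-99b 0.0203 and miR-181d 0.0140. With no scaling, miR-212 was -0.00321. With quantile normalisation, let-7f was 0.0462, miR-23a 0.0463, miR-16 0.25, miR-34a 0.12, miR-212 -0.15, miR-140* 0.00198, miR-140 0.0876, miR-99b 0.0446, miR-27a 0.10 and miR-142-5p -0.0871. With the total gene signal, miR-192 was 0.0481. With the deposited table, let-7f was 0.0314, miR-23a 0.0403, miR-16 0.34, miR-34a 0.0995, miR-212 -0.18, miR-140 0.0667, miR-99b 0.0376, miR-27a 0.0487 and miR-142-5p -0.10. With day 14 replicate 3 left out, miR-146a was -0.0457, miR-212 -0.0586 and miR-142-5p -0.00335. With outlier spots kept, miR-16 was 0.0316, miR-34a 0.0542, miR-140 0.00670, miR-99b 0.00161 and miR-181d 0.00203. With normexp, miR-29a* was -0.0113, miR-212 -0.0251 and miR-142-5p -0.0132. With 1 of the 6 arrays left out, miR-34a ranged from -0.0926 to 0.0696, miR-212 from -0.0787 to 0.0998, miR-146a from -0.0128 to 0.0559, miR-142-5p from -0.0595 to 0.23, miR-16 from -0.14 to 0.0157, miR-99b from -0.16 to 0.0121 and miR-181d from -0.18 to 0.00494.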
